A study of Mus musculus with 6 samples.

Results

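The genes examined here encode the ULK1 kinase complex, which starts autophagy, and the kinases known to act on it. They were Ulk1 and its paralog Ulk2, the complex subunits Atg13, Atg101 and Rb1cc1, the catalytic AMPK subunits Prkaa1 and Prkaa2, and Mtor, Rptor and Tsc2 of the mTOR pathway. The members were given as a list of 10 genes, and every probe whose array accession mapped to one of them was taken, whatever its value. This gave 19 of the 56605 probes that were not controls, and 10 of 23462 named genes. RNA had been measured in microglia, the resident immune cells of the brain, from mice with acute ischemic stroke (AIS) after transient occlusion of the middle cerebral artery. The cells were those held by magnetic beads carrying an antibody to P2RY12, a microglial surface receptor. The 3 control samples came from PGC-1α f/f littermates, which carried a loxP-flanked PGC-1α allele with eGFP, on a C57BL/6 background. The 3 mPGC-1α samples came from mice with the same allele and a tamoxifen-inducible Cre driven by Cx3cr1. That gene is active in microglia and in other macrophages and monocytes. The paper names the Cre line as an allele of Cx3cr1 and names no Cre for the controls. By this description the groups differed in the Cre allele as well as in PGC-1α overexpression, and these cannot be told apart here. The study left an interval after tamoxifen before its experiments, so that PGC-1α would be overexpressed in microglia rather than macrophages. The labels give male sex and an age of 10 weeks for all 6 samples. No label says whether a sample was 1 mouse or a pool, so the tests measure the spread between these samples.

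ULK1 and ULK2 are serine/threonine kinases that work in a complex with ATG13, ATG101 and the scaffold RB1CC1, also called FIP200. AMPK, which senses low energy, phosphorylates ULK1 and promotes autophagy, while mTOR complex 1, with its substrate-binding subunit raptor (Rptor), phosphorylates ULK1 and ATG13 and holds autophagy back when nutrients are plentiful. TSC2 restrains mTOR complex 1. Much of this control lies in phosphorylation, which RNA does not measure. PGC-1α is a transcriptional coactivator that works with the nuclear receptor ERRα, and the study asked whether it acts on autophagy in microglia after stroke through ULK1.

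A level below is log2 of the spot's processed signal minus log2 of the 75th percentile of its array, so that 0 is the 75th percentile, and a difference is the mPGC-1α mean minus the control mean in log2 units. Levels of different probes depend on each probe's own binding and were not compared as amounts of RNA. Tests were run on probes that stood well above background on every unmarked array of 1 group or both, with at least 2 values per group.

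The arrays were set against their labels first. The gene to be overexpressed, Ppargc1a, was not higher on the arrays labelled mPGC-1α. Its brighter probe (A_51_P279038) read -1.05, -0.55 and -0.53 in controls 1, 2 and 3, against -1.08, -0.86 and -1.12 in mPGC-1α samples 1, 2 and 3, a difference of -0.31 (standard error (SE) 0.24, limma adjusted p = 0.798). The dimmer probe (A_55_P2745394) differed by -0.41 (adjusted p = 0.769). Where these probes lie relative to the transgene was not known here, so they do not settle the genotype. The paper itself reported higher PGC-1α in microglia of mPGC-1α mice, by qRT-PCR in cultured primary cells and by immunostaining. Those were other samples than the arrays. Control array 2 stood apart from the other 5. Its Xist level was -4.83, against -0.57 to -0.11 on the others, and 6 of its 7 probes for Y-linked genes were well above background, against 1 or 2 on the others. Xist is made from the inactive X chromosome of females, so 5 arrays went against their male label, and results are given below with and without control array 2. The microglial markers P2ry12 and Tmem119 were well above background on all 6 arrays, with levels of 3.94 to 4.40 and 5.15 to 5.52, including outlier-marked spots. Cx3cr1 (A_52_P99810), the gene whose promoter drives Cre, read 4.19, 3.66 and 4.11 in the controls and 2.79, 2.36 and 3.13 on the mPGC-1α arrays. The groups did not overlap, and the difference was -1.23 (SE 0.24, adjusted p = 0.684, and 0.0139 without control array 2). The part of the Cre allele in this difference was not tested. Its second probe had too few unmarked spots to be tested.

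Markers of neurons, oligodendrocytes and astrocytes were mostly higher in mPGC-1α, where 64.0% of all genes tested were higher. All 10 neuronal markers, 9 of 10 oligodendrocyte markers and all 9 tested astrocyte markers were higher in mPGC-1α, and 0 passed the adjustment. Their summed signal, over the markers with all 6 values and in units of the array's 75th percentile, ranged from 40.4 to 65.8 in the controls and 65.3 to 74.8 on the mPGC-1α arrays for neurons. It ranged from 9.29 to 17.1 against 18.8 to 31.6 for oligodendrocytes, and from 10.7 to 16.1 against 17.1 to 55.9 for astrocytes. Of the 10 markers of monocytes and border macrophages 2 were higher and 8 lower, and of the endothelial markers 4 of 6 tested were higher, with Tek not well above background on any array. Of the 8 tested microglial markers 5 were higher. Over the microglial markers with all 6 values (5 genes), the summed signal ranged from 139.1 to 176.0 in the controls. On the mPGC-1α arrays it ranged from 176.5 to 185.6, so this sum was also higher without overlap. The part of these cells in the values below was not tested, and in such bulk samples fewer cells of a type and less RNA per cell cannot be told apart.

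Of the 19 member probes 18 were tested, 9 were higher and 9 lower in mPGC-1α, and 0 passed the adjustment (limma adjusted p from 0.684 to 0.973). This was also the share over all 40745 tested probes, of which 0 passed (0%), with a smallest adjusted p of 0.638. At an unadjusted p below 0.05 there were 3 member probes, the dimmer probes of Ulk1, Prkaa2 and Tsc2, all lower, against 2921 of all probes (7.17%). The Prkaa2 probe did not rise well above background in mPGC-1α and had entered the tests through the controls. Of the 11 member probes with all 6 values, 2 had groups that did not overlap, that Prkaa2 probe and the brightest of Rb1cc1, against 11.5% of all such probes. On the brightest tested probe of each gene, 6 members were higher and 4 lower, with a median of 0.09. Over the 18222 genes tested 64.0% were higher, with a median of 0.11.

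**Figure D1:**
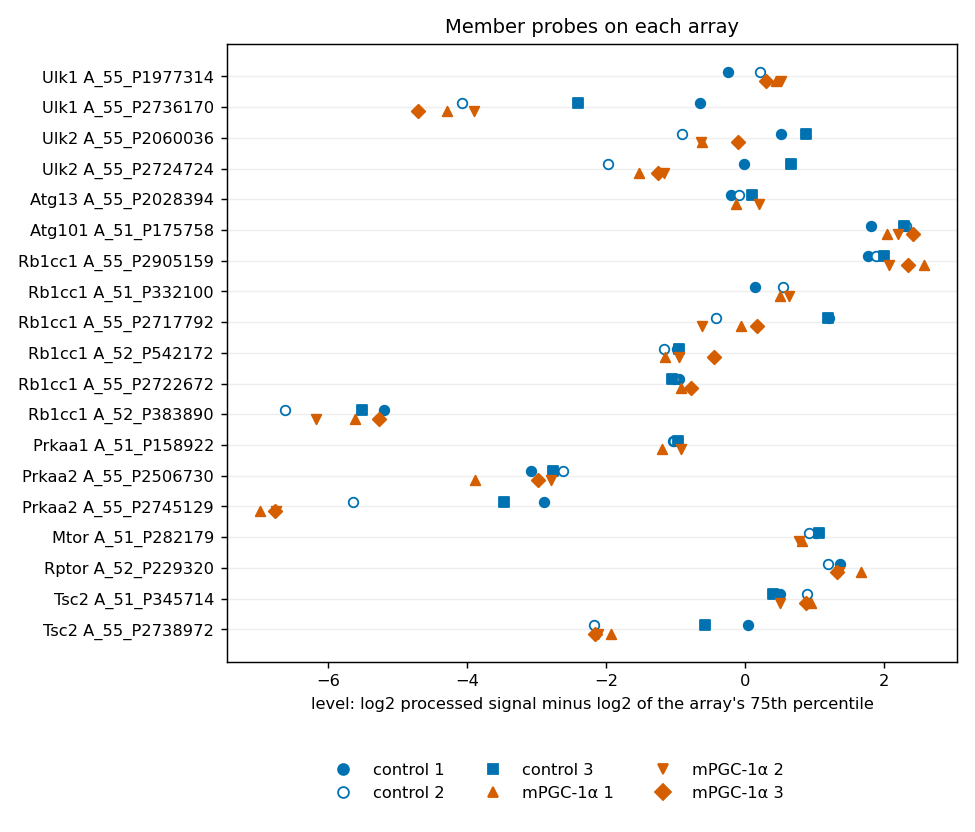
Level of each of the 19 member probes on each array, on a log2 scale relative to the array's 75th percentile, with controls in blue above each line and mPGC-1α in orange below it, and outlier-marked spots left out. On the dimmer probes of Ulk1, Tsc2 and Prkaa2, on both Ulk2 probes and on Rb1cc1 A_55_P2717792, control arrays 1 and 3 are the 2 highest, and control array 2 (open circle) lies nearer to the mPGC-1α arrays.

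The probes of Ulk1, the kinase the study turned to, moved in opposite directions. On the brighter probe (A_55_P1977314) the levels were -0.24 and 0.22 in controls 1 and 2 and 0.45, 0.52 and 0.30 in mPGC-1α samples 1, 2 and 3. The scanner software had marked the spot on control array 3 as an outlier, and it was left out. All 3 mPGC-1α values lay above both control values, with a difference of 0.43 (SE 0.25, 95% interval -0.15 to 1.01), a 1.35-fold higher signal that did not pass the adjustment (adjusted p = 0.752). The marked spot on control array 3 had a level of 0.85, above every mPGC-1α value, and with it kept the difference was 0.15 (SE 0.28, adjusted p = 0.921) and the groups overlapped. The size of the Ulk1 difference on this probe thus turned on 1 spot.

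The dimmer Ulk1 probe (A_55_P2736170), assigned to the same RefSeq transcript, read -0.65, -4.07 and -2.40 in controls 1, 2 and 3 and -4.29, -3.90 and -4.71 on the mPGC-1α arrays. The control values spanned a wide range, and control array 2 lay among the mPGC-1α arrays, so the groups overlapped. The difference was -1.92 (SE 0.72, 95% interval -3.53 to -0.31), a 3.79-fold lower signal (adjusted p = 0.685). The signal was well above background on all 6 arrays. Without control array 2 the difference was -2.77 (adjusted p = 0.0198), while the brighter probe then had 1 control value left and was not tested.

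The 3 genes whose brightest probe followed the brighter Ulk1 probe most closely were Syngr3, Zkscan8 and Plxnd1. Their mean absolute difference from it, after each profile was centred, was 0.019, 0.020 and 0.022 over the 5 arrays on which Ulk1 had a value, the smallest of 16191 genes. With so few arrays that likeness is a description.

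The paralog Ulk2 was lower on both of its probes. The brighter probe (A_55_P2060036) read 0.52, -0.90 and 0.88 in controls 1, 2 and 3 and -0.62, -0.63 and -0.10 in the mPGC-1α samples, a difference of -0.62 (SE 0.42, adjusted p = 0.773). The dimmer probe (A_55_P2724724) read -0.01, -1.98 and 0.66 in the controls and -1.52, -1.16 and -1.25 in the mPGC-1α samples, a difference of -0.87 (SE 0.56, adjusted p = 0.767). On each probe control arrays 1 and 3 lay above all 3 mPGC-1α arrays, and control array 2 lay below them. Without control array 2 both probes passed, with differences of -1.15 (adjusted p = 0.0340) and -1.63 (adjusted p = 0.00996), whereas without control array 3 the brighter probe differed by -0.26. The difference of the brighter probe was -0.43 within slide 1 and -0.98 within slide 2.

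The promoters of Ulk1 and Ulk2 are shown because ERRα acts through DNA and because some of their probes fell without control array 2. These were the dimmer Ulk1 probe and both Ulk2 probes, while the brighter Ulk1 probe could not then be tested. The sequences are from RefSeq (assembly GRCm38.p6), the 250 bases before the annotated start on the minus strand, at chr5:110810082-110810331 for Ulk1 and chr11:61855093-61855342 for Ulk2. Capitals mark the GC box, GGGCGG on either strand.
Ulk1: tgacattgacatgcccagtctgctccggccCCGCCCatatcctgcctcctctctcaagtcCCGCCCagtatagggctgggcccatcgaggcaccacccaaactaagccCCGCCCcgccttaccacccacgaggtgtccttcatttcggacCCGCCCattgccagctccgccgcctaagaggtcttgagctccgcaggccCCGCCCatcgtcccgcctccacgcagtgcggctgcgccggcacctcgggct
Ulk2: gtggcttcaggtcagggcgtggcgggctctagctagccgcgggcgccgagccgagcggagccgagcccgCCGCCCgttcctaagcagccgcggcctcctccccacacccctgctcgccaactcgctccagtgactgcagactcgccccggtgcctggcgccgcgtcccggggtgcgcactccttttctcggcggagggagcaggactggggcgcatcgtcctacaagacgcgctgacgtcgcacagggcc
Ulk1 had 5 GC boxes in this stretch and Ulk2 had 1. Promoters reaching 50 bases past the start were found for 9 of the 10 members, and Rb1cc1 was not matched. A GC box on either strand was present in 5 of the 9, those of Ulk1, Ulk2, Mtor, Prkaa1 and Prkaa2, and in 35.7% of all 32851 promoters of that length. The letters AAGGTCA, a half-site that ERRα can bind, were in 0 of the 9 and in 4.72% of all promoters, and the E-box CACGTG was in 0 of the 9 and in 7.15%, on either strand. These counts describe the letters of the window only.

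Of the other subunits, Atg13 and Atg101 differed little. Atg13, the subunit that links the kinases to the scaffold (A_55_P2028394), read -0.20, -0.08 and 0.10 in the controls and -0.13 and 0.20 in mPGC-1α samples 1 and 2. Its difference of 0.10 had a 95% interval from -0.48 to 0.68. Atg101, which stabilises ATG13 (A_51_P175758), read 1.81, 2.32 and 2.29 in the controls and 2.06, 2.20 and 2.43 in the mPGC-1α samples, a difference of 0.09 (95% interval -0.39 to 0.57). For both genes the groups overlapped.

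Rb1cc1, the scaffold, had 6 probes, all assigned to one transcript, and they did not move together. The brightest (A_55_P2905159) read 1.78, 1.90 and 2.01 in the controls and 2.59, 2.08 and 2.35 on the mPGC-1α arrays. These groups did not overlap, and the difference was 0.44 (SE 0.20, 95% interval -0.01 to 0.89, adjusted p = 0.699), or 1.36-fold higher. The probe A_55_P2717792 read 1.22, -0.41 and 1.19 in the controls and -0.06, -0.61 and 0.18 on the mPGC-1α arrays. It was lower by -0.83 (SE 0.43, adjusted p = 0.722), and by -1.37 without control array 2 (adjusted p = 0.0216). As for Ulk2, control arrays 1 and 3 were on top. The probes A_51_P332100, A_52_P542172 and A_55_P2722672 differed by 0.22, 0.18 and 0.16 (adjusted p from 0.882 to 0.910). On the last of these the 2 mPGC-1α values lay above the 3 controls. A marked spot of that probe on mPGC-1α array 2 read 2.33, above the -1.05 to -0.77 of the other arrays, and with it kept the difference was 1.22 (SE 0.72). The sixth probe (A_52_P383890) was well above background on 3 of 6 arrays and was not tested, with levels from -6.62 to -5.20.

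Prkaa1, which encodes AMPKα1 (A_51_P158922), read -1.04, -1.03 and -0.96 in the controls and -1.20 and -0.92 in mPGC-1α samples 1 and 2. The difference of -0.05 had a 95% interval from -0.65 to 0.54. Prkaa2, for AMPKα2, was dim on both of its probes. That probe (A_55_P2506730) read -3.08, -2.62 and -2.77 in the controls and -3.89, -2.79 and -2.99 in the mPGC-1α samples, a difference of -0.40 (SE 0.35, adjusted p = 0.817) between overlapping groups. Without mPGC-1α array 1 it was -0.063.

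The dimmer Prkaa2 probe (A_55_P2745129) was well above background on all 3 control arrays, at -2.90, -5.65 and -3.47, and on none of the mPGC-1α arrays, which measured -6.99, -6.76 and -6.76. The groups did not overlap, although control array 2 lay closer to the mPGC-1α arrays than to the other controls. As the mPGC-1α side gave only a bound, the signal was at least 3.83-fold lower there in this processing. The bound sets the control mean against the mPGC-1α mean of the lowest signal that counted as well above background on each array (or this probe's signal, if larger). That lowest signal belongs to the array and is not this spot's own limit. The bound also depends on the processing. With another background correction (normexp), the brighter minus the dimmer probe differed by 0.57 between the groups, in place of 2.43. The probe had entered the tests through the control group alone, which fixed its direction, so its test adds no support. The adjusted p was 0.684 with all 6 arrays.

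Mtor, the kinase itself (A_51_P282179), read 1.03, 0.93 and 1.07 in the controls and 0.83 and 0.79 in mPGC-1α samples 1 and 2. Both mPGC-1α values lay below the controls, with a difference of -0.20 (95% interval -0.71 to 0.30, adjusted p = 0.855). The marked spot on mPGC-1α array 3 read 1.13, above every control, and with it kept the difference was -0.10. Rptor (A_52_P229320) read 1.37 and 1.20 in controls 1 and 2 and 1.67, 1.36 and 1.33 in the mPGC-1α samples, a difference of 0.17 (95% interval -0.36 to 0.70). Tsc2 had a probe for each of 2 transcripts. The brighter (A_51_P345714) read 0.51, 0.90 and 0.41 in the controls and 0.96, 0.50 and 0.88 in the mPGC-1α samples, a difference of 0.18 (SE 0.23, adjusted p = 0.884).

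The dimmer Tsc2 probe (A_55_P2738972) read 0.04, -2.17 and -0.58 in controls 1, 2 and 3 and -1.93, -2.11 and -2.16 on the mPGC-1α arrays. The mPGC-1α values were tightly grouped, and control array 2 lay just below them. The difference was -1.16 (SE 0.49, 95% interval -2.26 to -0.07, adjusted p = 0.687), and -1.80 without control array 2 (adjusted p = 0.00569).

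**Figure D2:**
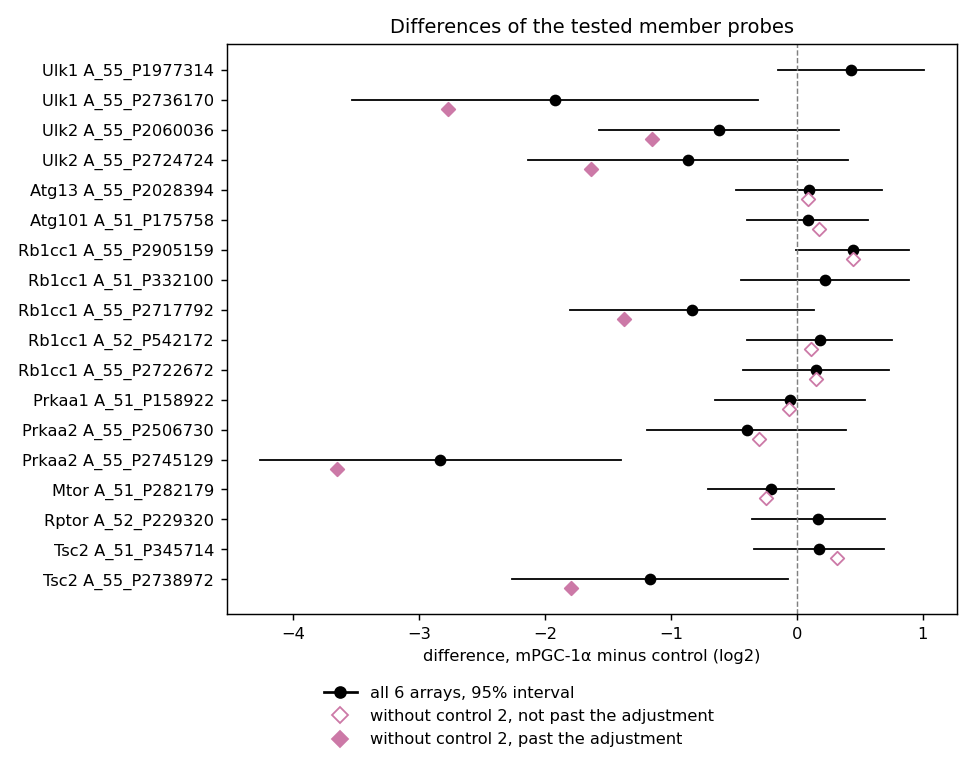
Difference of each tested member probe, mPGC-1α minus control in log2 units, with its 95% interval from limma over all 6 arrays (black), and without control array 2 (diamonds, filled where the adjusted p was below 0.05, shown where 2 control values remained). The 6 filled diamonds all lie below 0, 5 of them from -2.77 to -1.15, while the leftmost, Prkaa2 A_55_P2745129, stands for a bound because its mPGC-1α signal was not well above background. The probes with open diamonds lie between -0.30 and 0.44.

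Control array 2 thus set which member probes passed. Without it 6 of the 15 member probes that could be tested passed, all lower in mPGC-1α. The dimmer Prkaa2 probe, which had to be lower to be tested, was 1 of the 6. The other 9 had adjusted p-values of 0.245 or more. Over all probes 2102 passed without this array, 1962 of them lower, or 4.99% of the 39288 tested. The same 6 probes were those on which control arrays 1 and 3 were the 2 highest of the 6 arrays, an order seen after the values were known and held by 13.8% of all probes with 6 values. Leaving out any other array gave 0 member probes past the adjustment. With the replicate number as a block 0 member probes passed (smallest adjusted p = 0.124), and with the slide as a block 0 passed.

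In 5 of the member genes a bright and a dim probe could be set against each other on the same array, which cancels any scaling of the array. With marked spots left out, the brightest minus the dimmest tested probe was higher in mPGC-1α for all 5 genes. The direction for Prkaa2 adds no support, because its dim probe had entered the tests through the controls alone. That of Rb1cc1 turned to -0.77 with marked spots kept and to -0.96 in the deposited matrix. No member passed, as none of the 6345 genes with such a pair did (0%). Over all these genes 69.2% were higher, with a median of 0.23. For Ulk1 the contrast was 0.42 and 4.29 in controls 1 and 2 and 4.74, 4.42 and 5.005 in the mPGC-1α samples, a difference of 2.37 (SE 1.08, adjusted p = 0.433), and of 1.51 after normexp background correction. Control array 2 lay just under the mPGC-1α values and control array 1 far below them, and without control array 2 the single control left allowed no test.

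For Prkaa2 the contrast was -0.18, 3.03 and 0.70 in controls 1, 2 and 3 and 3.10, 3.97 and 3.78 on the mPGC-1α arrays. As its dim probe did not rise well above background there, the mPGC-1α values have no fixed size, and the difference of 2.43 (0.57 after normexp background correction) is given with no test. For Tsc2 the contrast was 0.47, 3.07 and 0.98 in the controls and 2.89, 2.61 and 3.04 in the mPGC-1α samples, a difference of 1.34 (SE 0.65, adjusted p = 0.436). Here control array 2 was the highest of all 6. Without control array 2 the Tsc2 contrast passed, at 2.12 (adjusted p = 0.00284), while 20.2% of all genes then passed in that direction. The contrasts of Rb1cc1 and Ulk2 differed by 0.42 (SE 0.27) and 0.25 (SE 0.32). Of the 4 contrasts other than that of Prkaa2, 0 had an unadjusted p below 0.05, whereas 10% of all genes had such a p and a higher contrast. For Tsc2 and Ulk2, which had all 6 values, the groups overlapped. Of all genes with 6 values 13.6% had a higher contrast in mPGC-1α and no overlap.

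**Figure D3:**
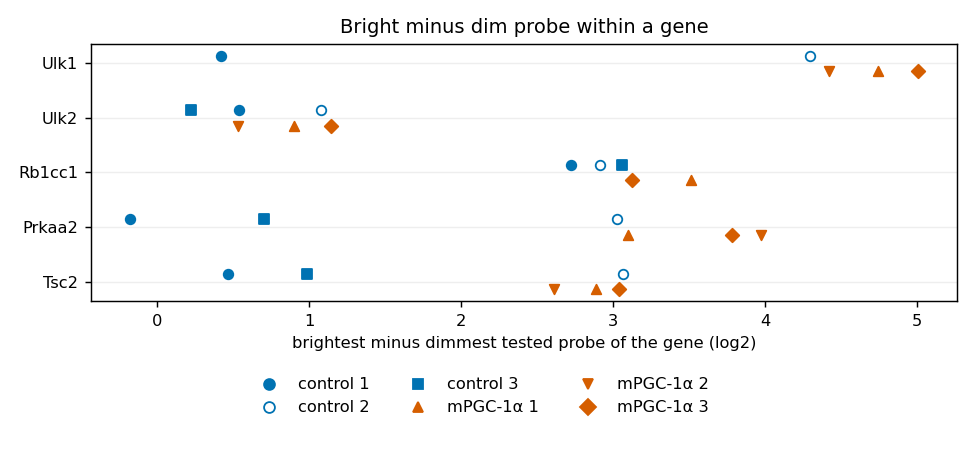
Brightest minus dimmest tested probe of the same gene on each array (log2), for the 5 members with more than 1 tested probe, controls in blue above and mPGC-1α in orange below. For Ulk1, Prkaa2 and Tsc2, control array 2 (open circle) lies at 3.03 to 4.29, near the mPGC-1α arrays, and the other controls lie at -0.18 to 0.98.

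The genes around the members were described by their brightest tested probe. None of them passed the adjustment with all 6 arrays. Without control array 2, 2 of the 62 that could be tested passed, both lower, while 4.99% of all probes passed and were lower. With all arrays, 1373 of the 16191 genes with 6 values were higher without overlap between the groups, and 558 were lower. Among the ULK paralogs, the PI3K complex that acts after ULK1 and other autophagy genes listed with them, 10 of 16 were higher (median 0.05). Atg2a, a lipid transfer protein of the growing autophagosome, read 0.99, 1.29 and 1.34 in the controls and 1.57, 1.63 and 1.65 in the mPGC-1α samples, a difference of 0.41 (adjusted p = 0.706). Ambra1, a regulator of Beclin 1, differed by 0.44 (adjusted p = 0.735) without overlap on 5 arrays. The 2 genes that passed without control array 2, singled out after their values were seen, were Becn1, which encodes Beclin 1, and Pik3c3, the catalytic PI3K subunit. Becn1 (A_51_P489337) read 1.23, -0.81 and 1.05 in the controls and -0.78, -0.48 and -0.29 in the mPGC-1α samples, with a difference of -1.002 (adjusted p = 0.710) and of -1.65 without control array 2 (adjusted p = 0.00418). Pik3c3 (A_55_P2006911) read 1.11, -0.39 and 1.40 in the controls and -0.32, -0.26 and -0.17 in the mPGC-1α samples, with a difference of -0.95 (adjusted p = 0.690) and of -1.51 without control array 2 (adjusted p = 0.00369). On both genes control array 2 was the lowest array. Of the other AMPK subunits and upstream kinases 9 of 11 were higher (median 0.24). Camkk1, a calcium/calmodulin-dependent kinase kinase, read -1.21, -1.30 and -0.85 in the controls and -0.29, -0.27 and -0.62 on the mPGC-1α arrays. The groups did not overlap, and the difference was 0.73 (SE 0.24, adjusted p = 0.684), or 1.66-fold. Camkk2, its paralog and a known AMPK kinase, read 0.62, 0.95 and 0.46 in the controls and 1.52 and 1.32 in mPGC-1α samples 1 and 2, a difference of 0.74 (SE 0.25, adjusted p = 0.684) without overlap.

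Of the partners, inhibitors and amino acid sensors of mTOR complex 1, 13 of 21 tested genes were higher (median 0.06), and Rragb was not tested. Lamtor3, part of the complex that holds mTOR complex 1 at the lysosome, differed by 0.39 (adjusted p = 0.734) without overlap, and by 0.16 on its dimmer probe. Of mTOR complex 2 and the mTOR targets 9 of 11 were higher (median 0.22). Mapkap1, a core subunit of mTOR complex 2, was the 1 gene of these lists with a lower level and no overlap. Over all genes this held for 558 of the 16191 with 6 values. Mapkap1 read 1.15, 0.87 and 1.74 in the controls and 0.71, 0.73 and 0.50 in the mPGC-1α samples, a difference of -0.60 (SE 0.25, adjusted p = 0.687). Its dimmer probes differed by -0.33 and -0.17. Rps6kb1, the S6 kinase, differed by 0.29 on its brighter probe and by -0.81 on its dimmer one (adjusted p = 0.775 and 0.772). Of the PGC-1 and ERR factors 3 of 6 were higher. Esrra, which encodes ERRα, read 2.66, 3.09 and 2.51 in the controls and 3.10, 3.27 and 3.06 in the mPGC-1α samples, a difference of 0.39 (SE 0.20, adjusted p = 0.722) between overlapping groups.

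**Figure D4:**
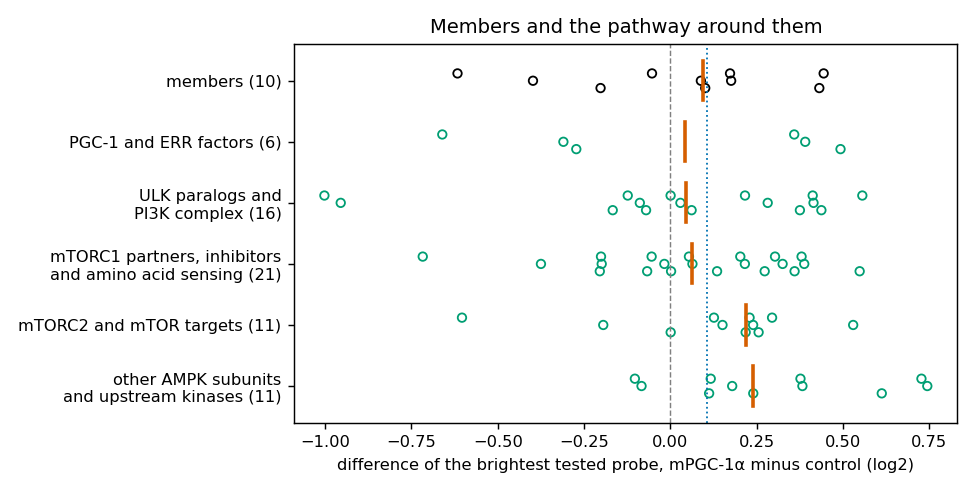
Difference of the brightest tested probe of each gene, mPGC-1α minus control in log2 units, for the 10 members (black) and the genes of each pathway list (green), with the number of genes in parentheses. Orange bars are list medians, from 0.04 to 0.24, the dashed line is 0 and the dotted line is the median of all genes, 0.11.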

How the data were processed

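Microglial RNA from 3 control and 3 mPGC-1α samples had been hybridised to single-colour Agilent arrays. The dye is Cy3 in the labels' dye field and Cy5 in the protocol of the labels. The authors deposited scanner files of linear intensity values, made with Agilent Feature Extraction 11.5.1.1, with flags for outliers and background, and a series matrix of log2 values normalized in GeneSpring. The scale and centring of that matrix were not stated, and its array medians lay between 7.78 and 7.79. The arrays' number limits the precision.

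In R 4.3.3 (with version 1.17.8 of data.table), log2 of each array's 75th percentile over all non-control probes (spots averaged, marked spots included) was subtracted from the log2 processed signal. Outlier-marked spots then were left out. Probes were named by matching their accession to RefSeq (GRCm38.p6), which named 33767 of 56605 (59.7%). Groups were compared with limma 3.58.1 (intensity trend, two-sided), with Benjamini-Hochberg adjustment over 40745 probes and a threshold of 0.05. The contrast of the brightest and dimmest probe was fitted over all genes with both. With 3 arrays a group, an exact permutation test over the 20 assignments cannot give a p below 0.1. The procedure was tested on simulated data.

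Arrays with the same replicate number deviated together (r = 0.247, 0.224 and 0.171; -0.337 to 0.035 for other pairs), which met the criterion for pairing. The fits leave the replicate number out, except where a block is named, and no label says what the number stands for. Slide 1 held replicates 1 and 2 of each group and slide 2 replicate 3. On slide 2 the scanner software marked 3010 and 4931 spots, against 549 to 1094 on the other arrays.

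The members and lists were chosen with earlier results of these data known. Named were all members, Ppargc1a, Esrra, Cx3cr1 and P2ry12, the 3 genes most like Ulk1, and per pathway list the largest rise and fall without overlap, over genes with all 6 values and, where larger, over those with 5. Alternatives were another normalization, background correction (normexp, offset 50, on the median intensity), the deposited log2 matrix, other filters, marked spots kept, slide and replicate blocks, no trend, the mean of a gene's probes and leaving out each array. Taking the percentile after marked spots were left out was added after the data were seen.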

Additional observations from a re-analysis of the deposited data

How the results depend on the processing

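Control array 2 changed the most. Without it 2102 probes, 6 member probes (that of Prkaa2 only as a bound) and 1371 bright minus dim contrasts passed, against 0 of each with all arrays and 0 without any other array. With a replicate block 1 probe passed, no member probe or contrast did, and the Ulk1 difference was 0.49 (adjusted p = 0.546) and its contrast 2.22 (adjusted p = 0.429). The median difference over the members was 0.09, and -0.13 with the mean of a gene's probes. When 1 array was left out it ranged from -0.072 (without control array 1) to 0.22 (without mPGC-1α array 2). Without control array 2 it was 0.01. These medians cover different genes, as members left with too few values dropped out. Ulk1 and Rptor had no value without control array 1 or 2, and Atg13, Prkaa1 and Mtor none without mPGC-1α array 1 or 2. Leaving out 1 array gave the Ulk1 brightest probe 0.38 to 0.49 and its contrast 2.22 to 2.52, with no test without control array 1 or 2. Elsewhere these values moved more: the authors' matrix gave the Ulk1 probe 0.16, and marked spots kept gave it 0.15. Normexp gave contrasts of 1.51 for Ulk1 and 0.57 for Prkaa2, and a Rptor difference of 0.058. Leaving out 1 array gave ranges of -1.15 to -0.26 for Ulk2, -0.62 to -0.063 for Prkaa2, 0.064 to 0.24 for Rptor, 0.077 to 0.32 for Tsc2 and 0.031 to 0.18 for Atg13. The mean of a gene's probes reversed Ulk1, to -0.35, and Tsc2, to -0.49. Atg101 ranged from -0.076 without control array 1, with -0.010 without mPGC-1α array 3, to 0.18 without control array 2, and Prkaa1 reversed to 0.026 after normexp. The Rb1cc1 contrast reversed to -0.96 in the authors' matrix and to -0.77 with marked spots kept, where the marked spot on mPGC-1α array 2 entered. None of these reversed values passed the adjustment, and apart from the marked spot the cause was not tested. Taking the percentile without marked spots, added after seeing the data, moved the Ulk1 difference to 0.57 and the median over all genes from 0.11 to 0.17, and 0 probes passed.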
